A study of Homo sapiens with 12 samples.

Results

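The genes described here are 10 regulators of apoptosis from the BCL2 family: BAX, BAK1, BCL2L1, MCL1, BCL2L11, BID, PMAIP1, BAD, BIK and BMF. They were chosen by gene symbol, and all 10 were found in both tables, among 29657 genes listed for SCC15 cells and 31055 for SCC25 cells. RNA was sequenced from these cell lines, both of them oral squamous cell carcinoma lines labelled as wild type, to compare transcription with and without a plant-derived cytotoxic compound. In each line, 3 libraries came from cells given squamocin at 10 µg/mL for 24 h and 3 came from cells given the solvent DMSO for the same time. Squamocin is an annonaceous acetogenin, and its libraries carry the label ACGs. Each line is an established culture, and nothing in the labels says whether the 3 libraries of a group came from separate cultures, so p-values measure only the spread between these libraries, which may be technical.

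Proteins of the BCL2 family decide whether the outer mitochondrial membrane stays intact. BAX and BAK1 are the effectors, which assemble into pores that release cytochrome c. BCL2L1 (BCL-XL) and MCL1 are pro-survival members that hold the effectors and their activators in check. The remaining genes encode BH3-only proteins. BCL2L11 (BIM) and BID can activate the effectors directly, whereas PMAIP1 (NOXA), BAD, BIK and BMF act mainly by occupying the groove of the pro-survival proteins. Several BH3-only genes are known to be transcribed in response to stress, and MCL1 RNA and protein are known to turn over rapidly.

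The values are normalized counts, which are reads per gene divided by 1 scaling factor per library, set by the authors within each cell line. The libraries held 16665563 to 22748845 reads on genes. After that scaling, the median SCC15 library totalled 20826159 (squamocin) or 15511759 (DMSO), and the median SCC25 library 21182014 or 18272805. The choice of scaling therefore matters: with libraries set to equal totals, the median log2 difference of all genes moved by -0.50 in SCC15 and by -0.21 in SCC25. Squamocin replicate 3 of SCC15 stood apart from replicates 1 and 2, with a chi-square per degree of freedom of 71.6 and 63.5, against 1.72 to 11.0 for the other pairs of libraries. It was the highest squamocin library of SCC15 for BAX, BAK1, BCL2L1, BID, PMAIP1 and BAD and the lowest for MCL1 and BCL2L11. Of 9 epithelial markers read, those with the highest levels within the SCC25 libraries were KRT5, TP63, EPCAM, CDH1 and KRT17. SCC15 libraries held KRT17 and KRT14. KRT5, TP63, EPCAM and DSG3 lay there at no more than 0.317 RPKM (reads per kilobase of exon, scaled to the reads on genes). The epithelial label was thus only partly borne out by the markers in SCC15, where CDH1 was at 2.86 to 5.89, PKP1 at 3.79 to 7.01 and KRT6A at 1.55 to 3.06. In SCC25, KRT14 was at 8.34 to 18.2 RPKM, DSG3 at 4.90 to 6.54, KRT6A at 1.56 to 3.73 and PKP1 at 0.328 to 1.23. Among the markers of other cell types, the summed level of the 4 blood markers found was 9.24 to 12.2 with squamocin and 19.1 to 20.9 with DMSO in SCC15, nearly all of it CD14, and 0.380 to 0.596 against 10.7 to 13.6 in SCC25. PTPRC, which marks leukocytes, had at most 5 reads in any SCC15 library. The summed level of the endothelial markers found was at most 2.36 in any library and that of the 6 fibroblast markers at most 6.93. The 9 epithelial markers summed to 2392 to 2517 RPKM with DMSO and 3359 to 4844 with squamocin in SCC15. Nearly all of that was KRT17, at 2356 to 4800 over the SCC15 libraries of both treatments. In SCC25 they summed to 346 to 351 with DMSO and 539 to 582 with squamocin, with KRT17 at 107 to 308. The part of these shifts in the members' results was not tested.

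PMAIP1, the member with the largest rise in both lines, and BAX, which moved in opposite directions in the 2 lines, have the promoters shown here. Each run is the 250 bases before the RefSeq start of the gene on GRCh38.p14, 5′ to 3′ on the + strand, with capitals marking the GC box GGGCGG or its reverse complement in PMAIP1, and the E-box CACGTG and the GC box in BAX. The PMAIP1 window is chr18:59899746-59899995 and the BAX window is chr19:48954625-48954874.
PMAIP1: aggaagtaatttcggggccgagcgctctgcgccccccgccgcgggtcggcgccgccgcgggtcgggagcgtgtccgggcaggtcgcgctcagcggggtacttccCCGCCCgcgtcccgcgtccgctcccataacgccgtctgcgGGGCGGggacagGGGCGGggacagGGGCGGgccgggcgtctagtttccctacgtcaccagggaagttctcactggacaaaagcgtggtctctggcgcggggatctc
BAX: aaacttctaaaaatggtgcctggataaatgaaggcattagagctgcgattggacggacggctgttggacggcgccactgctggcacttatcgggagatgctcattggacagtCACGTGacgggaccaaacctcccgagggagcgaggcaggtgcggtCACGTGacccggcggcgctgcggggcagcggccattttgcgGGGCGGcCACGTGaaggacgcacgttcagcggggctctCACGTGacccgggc

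The PMAIP1 window held 4 GC boxes, 3 of them on the + strand at 106, 94 and 82 bases before the start. A GC box stood in 42.64% of all 35116 RefSeq promoter windows of this length. The BAX window held 4 E-boxes, at 138, 93, 45 and 14 bases before the start, whereas 6.345% of all windows held any. BID, which has 5 windows, held 1 E-box in 2 of them. A count of 4 or more was found in 5 of the 35116 windows, a figure looked up after the BAX matches had been seen. RefSeq windows were found for 8 of the 10 members, not for MCL1 and BIK. Of these, BCL2L11 held the FOXO site GTAAACA 223 bases before its start, against 2.979% of all windows. The CRE TGACGTCA, the C/EBP-ATF element TGATGNAA and the AP-1 site TGANTCA were searched on both strands and were not found in any of the 15 windows of the 8 members, against 1.646%, 3.144% and 6.573% of all windows. These matches describe letters only and no binding was measured.

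The treatments were compared within each line by limma, after adding 1 to each normalized count and taking log2, over 15902 genes in SCC15 and 16539 in SCC25 with a mean of at least 10, and called at a Benjamini-Hochberg adjusted p below 0.05. All 10 members passed that minimum in both lines. In bulk libraries, a change of RNA per cell and a change in the cells that survive to be sampled cannot be told apart. In SCC15, 6 members rose, 2 fell and 2 were not called, where 61.0% of all genes tested were called (30.9% higher and 30.0% lower). The treatments did not overlap for 9 members in SCC15, 7 of them higher and 2 lower with squamocin, where 70.6% of all genes did not (35.7% higher and 34.9% lower). In SCC25, 5 rose, 4 fell and 1 was not called, against 76.8% of all genes (38.3% higher and 38.5% lower), and 9 members did not overlap, 5 higher and 4 lower, against 79.0% of all genes (39.4% and 39.6%). The share of members called, 80% and 90%, therefore stood beside a response that covered most of the transcriptome. The median log2 difference of the members was 0.66 in SCC15 and 0.20 in SCC25, where that of all genes tested was 0.012 and -0.015. Setting the libraries to equal totals gave the members medians of 0.16 and -0.0061. The share of higher calls among all genes called fell from 50.8% to 22.2% in SCC15 and from 49.9% to 38.9% in SCC25, and 3 members rose and 2 fell in SCC15, where 14.6% of all genes rose and 51.0% fell, and 5 rose and 4 fell in SCC25, where 30.2% rose and 47.6% fell. PMAIP1, BCL2L1, BAK1 and BAD rose in both lines under the authors' scaling, and MCL1 and BMF fell in both, where 22.1% of genes tested in both lines rose in both and 18.6% fell in both. BAX and BID were called in opposite directions, as were 10.1% of all genes. The plot of normalized counts by library shows each member in turn.

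**Figure D1:**
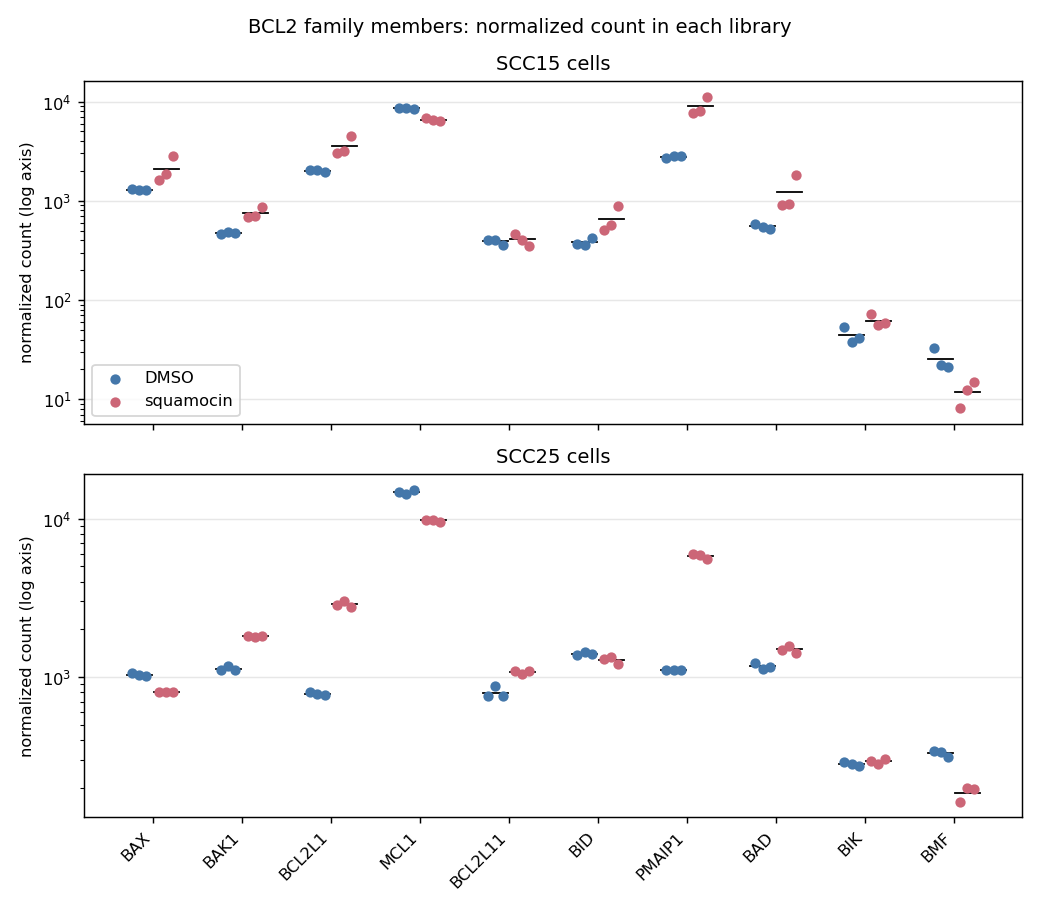
Normalized counts (log axis) of the 10 members in every library of SCC15 (top) and SCC25 (bottom). Each point is 1 library, blue for DMSO and red for squamocin, with replicates 1 to 3 from left to right, and each line is the mean of 3. The groups of PMAIP1, BCL2L1, BAK1, BAD, MCL1 and BMF are separate in both lines, and those of BCL2L11 in SCC15 and of BIK in SCC25 overlap.

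The pro-survival genes moved apart. BCL2L1 rose in both lines and MCL1 fell in both. BCL2L1, on chromosome 20 (31664452 to 31723989, minus strand, GRCh38), had 2032, 2055 and 1962 normalized counts in the DMSO libraries of SCC15 and 3002, 3145 and 4461 in the squamocin libraries. In SCC25 it had 801, 788 and 771 with DMSO and 2833, 3032 and 2772 with squamocin. Every squamocin library lay above every DMSO library of the same line, by a wider gap in SCC25. The log2 difference of BCL2L1 was 0.79 ± 0.15 (SE, n = 3 per group, limma adjusted p = 0.00326) in SCC15 and 1.87 ± 0.050 (limma adjusted p = 7.55e-12) in SCC25, which is 1.75-fold and 3.66-fold. Its rise was called under equal library totals too, at log2 0.29 in SCC15 and 1.66 in SCC25. BCL2L1 is overlapped on the other strand by ABALON and AL117381.1, whose means were at most 38.5 normalized counts.

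MCL1, on chromosome 1 (150574551 to 150579738, minus strand), encodes a pro-survival protein that NOXA binds. It had 8678, 8654 and 8404 normalized counts with DMSO in SCC15 and 6782, 6534 and 6344 with squamocin. The SCC25 libraries had 14720, 14362 and 15176 with DMSO and 9826, 9839 and 9538 with squamocin. The groups did not overlap, and MCL1 fell by 23.6% in SCC15 (log2 -0.39 ± 0.084, limma adjusted p = 0.0054) and by 34.0% in SCC25 (-0.60 ± 0.037, limma adjusted p = 1.28e-08). Under equal totals the log2 difference of MCL1 was -0.89 in SCC15 and -0.81 in SCC25.

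The effectors responded differently from each other. BAK1 rose to a similar extent in both lines, whereas BAX rose in SCC15 and fell in SCC25. BAK1, on chromosome 6 (33572547 to 33580293, minus strand), had 461, 489 and 479 normalized counts with DMSO in SCC15 and 680, 709 and 857 with squamocin. In SCC25 it had 1104, 1172 and 1116 with DMSO and 1829, 1783 and 1825 with squamocin. The groups did not overlap in either line, and the rise was 1.57-fold in SCC15 (log2 0.65 ± 0.11, limma adjusted p = 0.00185) and 1.60-fold in SCC25 (0.68 ± 0.048, limma adjusted p = 4.13e-08). The SCC15 rise was, under equal library totals, no longer called (log2 0.15, adjusted p = 0.146), and that of SCC25 was (0.47).

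BAX, on chromosome 19 (48954815 to 48961798, plus strand), had 1304, 1281 and 1294 normalized counts with DMSO in SCC15 and 1634, 1874 and 2827 with squamocin. Its SCC25 values were 1065, 1034 and 1015 with DMSO and 806, 805 and 807 with squamocin. The squamocin libraries lay above all DMSO libraries in SCC15, led by replicate 3, and below all of them in SCC25, where they were nearly identical. BAX rose 1.63-fold in SCC15 (log2 0.67 ± 0.19, limma adjusted p = 0.0172) and fell by 22.4% in SCC25 (-0.36 ± 0.052, limma adjusted p = 3.21e-05). Without squamocin replicate 3 the SCC15 difference was 0.44 (limma adjusted p = 7.93e-07). The SCC15 call was lost when DMSO replicate 1, 2 or 3 was left out (limma adjusted p = 0.0533, 0.0563 and 0.0539), and with equal library totals (log2 0.17, adjusted p = 0.295).

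Of the BH3-only activators, BCL2L11 rose in SCC25, and BID, an activator that is switched on by cleavage, was called higher in SCC15 and lower in SCC25. BCL2L11, on chromosome 2 (111119378 to 111168447, plus strand), had 406, 403 and 360 normalized counts with DMSO in SCC15 and 468, 402 and 353 with squamocin, so that the groups overlapped (log2 0.059 ± 0.13, limma adjusted p = 0.704). In SCC25 it had 756, 882 and 756 with DMSO and 1094, 1041 and 1095 with squamocin, a rise of 1.35-fold without overlap (log2 0.44 ± 0.067, limma adjusted p = 6.76e-05). The SCC15 value turned, under equal library totals, to -0.44 (adjusted p = 0.0569), and without squamocin replicate 1 to -0.045. The span of BCL2L11 lies within that of MIR4435-2HG on the other strand, which had a mean of 306 normalized counts in SCC15 and 589 in SCC25. The strand setting of the counting is not given in the sources used here. Reads from any exon stretch that the 2 genes share therefore cannot be told apart, and the extent of such stretches was not computed.

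BID, on chromosome 22 (17734138 to 17774770, minus strand), had 365, 358 and 420 normalized counts with DMSO in SCC15 and 507, 576 and 878 with squamocin. Its values in SCC25 were 1378, 1436 and 1392 with DMSO and 1296, 1344 and 1213 with squamocin. The groups did not overlap in either line, but in SCC25 the gap was narrow, from 1344 to 1378. BID rose 1.72-fold in SCC15 (log2 0.74 ± 0.20, limma adjusted p = 0.0145) and fell by 8.37% in SCC25 (-0.13 ± 0.053, limma adjusted p = 0.0432). The SCC15 call was lost without DMSO replicate 1 or 2 (limma adjusted p = 0.0529 and 0.0549) and with equal library totals (log2 0.24, adjusted p = 0.193). The SCC25 call was kept in 1 of 6 analyses that left out a library, the one without squamocin replicate 2. Without squamocin replicates 1 and 3 and DMSO replicates 1, 2 and 3 in turn, limma gave adjusted p = 0.0693, 0.0773, 0.0750, 0.149 and 0.0926.

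Among the BH3-only sensitizers, PMAIP1 and BAD rose in both lines, BMF fell in both and BIK was called in neither. PMAIP1, on chromosome 18 (59899948 to 59904306, plus strand), encodes NOXA, which binds MCL1 and is a known target of the integrated stress response. It had 2720, 2833 and 2806 normalized counts with DMSO in SCC15 and 7743, 8004 and 11204 with squamocin. SCC25 libraries held 1115, 1111 and 1116 with DMSO and 6012, 5892 and 5584 with squamocin. The rise was larger than that of any other member in both lines, at 3.22-fold in SCC15 (log2 1.67 ± 0.15, limma adjusted p = 1.08e-04) and 5.23-fold in SCC25 (2.39 ± 0.044, limma adjusted p = 2.91e-13). It stood at the 95.7th percentile of the log2 differences of all genes tested in SCC15 and at the 97.8th in SCC25. The values under equal library totals were 1.17 and 2.18.

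BAD, on chromosome 11 (64269830 to 64284704, minus strand), encodes a sensitizer that 14-3-3 proteins hold in the cytoplasm when it is phosphorylated. It had 582, 550 and 526 normalized counts with DMSO in SCC15 and 897, 938 and 1823 with squamocin, and in SCC25 1234, 1125 and 1164 with DMSO and 1486, 1581 and 1418 with squamocin. No squamocin library fell among the DMSO libraries, and the log2 difference was 1.06 ± 0.26 in SCC15 (limma adjusted p = 0.00873) and 0.35 ± 0.057 in SCC25 (limma adjusted p = 1.15e-04). BAD remained called with equal library totals, at 0.57 and 0.14. The span of BAD, introns included, shares 14643 bases with GPR137, a protein-coding gene on the other strand. GPR137 had a mean of 995 normalized counts in SCC15 and 1575 in SCC25. Without the strand, reads from any exon stretch that the 2 genes share cannot be told apart, and the extent of such stretches was not computed.

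BMF, on chromosome 15 (40087890 to 40108892, minus strand), encodes a sensitizer that is tethered to the actin-linked motor through dynein light chain 2. It was close to the detection limit in SCC15, with 39, 28 and 24 reads in the DMSO libraries and 7, 11 and 12 in the squamocin libraries. Those reads correspond to 33.3, 22.1 and 21.0 normalized counts with DMSO and 8.11, 12.5 and 14.9 with squamocin. The groups did not overlap and the log2 difference was -1.05 ± 0.34 (limma adjusted p = 0.0281), but the call was lost without squamocin replicate 1 (limma adjusted p = 0.0661) and without DMSO replicate 1, 2 or 3 (limma adjusted p = 0.117, 0.0635 and 0.0548). In SCC25, BMF had 341, 338 and 312 normalized counts with DMSO and 164, 200 and 197 with squamocin, a fall of 43.5% (log2 -0.83 ± 0.10, limma adjusted p = 8.13e-06). BIK, on chromosome 22 (43110748 to 43129712, plus strand), encodes a sensitizer found at the endoplasmic reticulum. It had 53.7, 38.0 and 41.9 normalized counts with DMSO in SCC15 and 71.9, 55.9 and 58.5 with squamocin, groups that did not overlap but whose difference was not called (log2 0.48 ± 0.20, limma adjusted p = 0.0765). Without squamocin replicate 3, the value was 0.51 and was called (limma adjusted p = 0.0410), and with equal library totals it turned to -0.012. In SCC25 the BIK groups overlapped, at 289, 282 and 276 with DMSO and 294, 285 and 303 with squamocin (log2 0.056 ± 0.080, limma adjusted p = 0.538), and with equal library totals the value was -0.15 (adjusted p = 0.101).

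**Figure D2:**
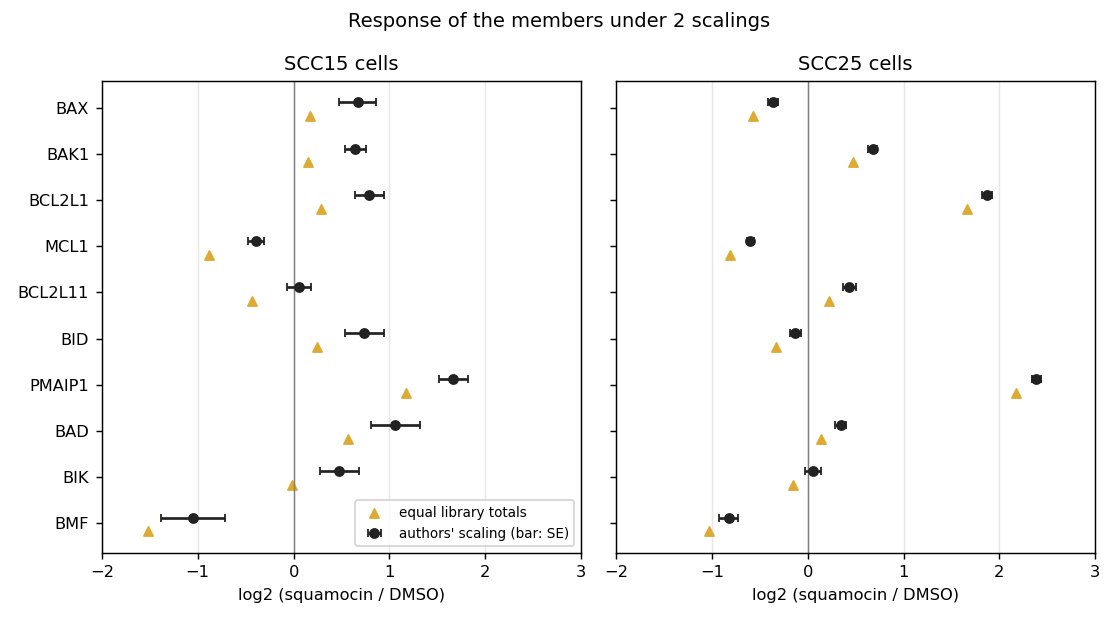
Log2 difference between squamocin and DMSO for the 10 members in SCC15 (left) and SCC25 (right). Black points are the authors' scaling with the limma standard error as bars (n = 3 per group), and yellow triangles are the same libraries set to equal totals. PMAIP1 and BCL2L1 lie above 0 and MCL1 and BMF below 0 under both scalings in both lines, and BCL2L11 and BIK in SCC15 and BIK in SCC25 change side.

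The lines were then compared with each other by the contrast of their responses, over the 14454 genes tested in both, of which 52.2% differed between the lines (26.1% with the higher response in SCC15 and 26.0% with the lower). Of the members, 6 differed. BAX differed by 1.03 ± 0.20 on the log2 scale (SCC15 response minus SCC25 response, limma adjusted p = 9.92e-04) and BID by 0.87 ± 0.22 (limma adjusted p = 0.00492), so that both responses were higher in SCC15. The responses of BCL2L1 (-1.08 ± 0.17, limma adjusted p = 1.45e-04) and of PMAIP1 (-0.72 ± 0.16, limma adjusted p = 0.00202) were larger in SCC25. These 4 differences were called in every analysis that left out 1 of the 12 libraries and with equal library totals. The difference of BAD was 0.72 ± 0.28 (limma adjusted p = 0.0474) and that of BCL2L11 -0.38 ± 0.15 (limma adjusted p = 0.0486), both close to the threshold. The BAD call was kept in 3 of the 12 analyses that left out a library, those without a squamocin replicate of SCC15. Without squamocin replicate 3 of SCC15 the BAD difference shrank to 0.39 (limma adjusted p = 8.21e-04), and without a DMSO replicate of SCC15 or any SCC25 library limma gave an adjusted p between 0.0654 and 0.0951. The BCL2L11 call was kept in 4 of the 12, those without squamocin replicates 1 or 3 or DMSO replicate 3 of SCC15 or DMSO replicate 2 of SCC25. In the other 8 limma gave an adjusted p between 0.0633 and 0.110.

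No difference between the lines was called for MCL1 (0.21 ± 0.090, limma adjusted p = 0.0664), BIK (0.42 ± 0.20, limma adjusted p = 0.102), BMF (-0.22 ± 0.32, limma adjusted p = 0.581) and BAK1 (-0.035 ± 0.12, limma adjusted p = 0.822). For MCL1 the missing call depended on 1 library and on the method. Without squamocin replicate 3 of SCC15 the value was 0.23 with a limma adjusted p of 9.74e-04. DESeq2 on all libraries called the MCL1 difference (0.21, DESeq2 adjusted p = 0.00748), and equal library totals gave -0.079 (limma adjusted p = 0.597). The BIK difference was called without DMSO replicate 1 of SCC15 (0.56, limma adjusted p = 0.0278). Under equal library totals, that of BAK1 was called (-0.32, adjusted p = 0.00671) and those of BAD and BCL2L11 were 0.43 (adjusted p = 0.122) and -0.67 (adjusted p = 0.0123).

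Ratios between 2 members within a library do not depend on the scaling of the libraries. Of the 4 ratios fixed for comparison, each set a BH3-only or effector gene against a pro-survival gene whose protein it binds. The ratio of PMAIP1 to MCL1 was 0.313, 0.327 and 0.334, in rising order, in the DMSO libraries of SCC15 and 1.14, 1.23 and 1.77 in the squamocin libraries. In SCC25 it was 0.0736, 0.0758 and 0.0774 with DMSO and 0.585, 0.599 and 0.612 with squamocin. PMAIP1 thus held fewer normalized counts than MCL1 in every DMSO library and more in every squamocin library of SCC15, and the ratio was higher with squamocin by log2 2.06 in SCC15 and 2.99 in SCC25. An exact permutation test, two-sided, of 3 libraries against 3 gave p = 0.1 in each line (adjusted over the 8 tests, 0.114), the smallest p that this design allows.

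The ratio of BAK1 to MCL1 rose from a mean of 0.0555 to 0.114 in SCC15 and from 0.0766 to 0.186 in SCC25, without overlap (log2 1.04 and 1.28, exact permutation p = 0.1 in each line). The ratios with BCL2L1 went the other way, as BCL2L1 rose more than its partners. That of BCL2L11 to BCL2L1 fell from 0.193 to 0.116 in SCC15 and from 1.01 to 0.374 in SCC25, again without overlap (log2 -0.73 and -1.44, exact permutation p = 0.1 in each line), and without squamocin replicate 3 the SCC15 value was -0.45. BAX to BCL2L1 moved from 0.641 to 0.590 in SCC15, where the groups overlapped (log2 -0.12, exact permutation p = 0.2), and dropped from 1.32 to 0.280 in SCC25 (log2 -2.24, exact permutation p = 0.1).

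Levels of different genes were compared per length, in RPKM. MCL1 had the highest level with DMSO in both lines, at 88.9 ± 1.39 (SD, n = 3) in SCC15 and 129.7 ± 3.72 in SCC25. PMAIP1 followed in SCC15 at 82.2 ± 1.74. In SCC25 its level was 27.9 ± 0.096, below BAD (37.6 ± 1.69) and next to BAK1 (28.0 ± 0.924), from which it did not differ beyond the spread. BMF had the lowest level in both lines, at 0.301 ± 0.080 and 3.32 ± 0.151. With squamocin, PMAIP1 took the first place in both lines, at 185.7 ± 19.5 in SCC15 and 126.2 ± 3.88 in SCC25, and MCL1 the second, at 48.4 ± 6.19 and 74.1 ± 0.686. BCL2L1 (38.0 ± 4.47), BAX (36.7 ± 6.95) and BAD (25.7, 26.4 and 43.3) followed in SCC15 within each other's spread. In SCC25, BAD (41.4 ± 1.94) and BAK1 (38.8 ± 0.793) were followed by BCL2L1 (32.5 ± 1.31), whose level with DMSO was 10.3 ± 0.172, rank 8 of the 10.

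As a share of the summed level of the 10 members, PMAIP1 went from 29.2% ± 0.692 to 50.4% ± 0.461 in SCC15 and from 9.33% ± 0.057 to 34.6% ± 0.613 in SCC25. MCL1 went from 31.6% ± 0.295 to 13.3% ± 2.80 and from 43.4% ± 0.927 to 20.3% ± 0.127. The pro-survival genes together went from 42.6% to 23.6% in SCC15 and from 46.8% to 29.2% in SCC25, while the BH3-only sensitizers went from 37.8% to 59.7% and from 28.5% to 50.3%. The effectors went from 16.4% to 14.1% and from 16.7% to 14.7%, and the activators from 3.30% to 2.57% and from 7.98% to 5.83%. None of these role shares overlapped between the treatments in either line. Of the sensitizers, only PMAIP1 rose in share in SCC25. BAD went from 12.6% to 11.3% there, BIK from 5.44% to 4.01% and BMF from 1.11% to 0.445%. In SCC15, BAD went from 7.40% to 8.51%, BIK from 1.07% to 0.828% and BMF from 0.107% to 0.0266%. The BAD shares overlapped there, at 7.12% to 7.77% with DMSO and 7.43% to 10.6% with squamocin. So did those of BIK, at 0.907% to 1.29% and 0.611% to 1.07%. The pro-survival BCL2L1 went from 11.0% to 10.3% in SCC15 but from 3.43% to 8.89% in SCC25. Shares are parts of the same sum, so the PMAIP1 rise lowers the others. The shares depend on the length given to each gene, and with the length of the canonical transcript in place of all exons, PMAIP1 went from 20.5% to 37.8% in SCC15 and from 6.60% to 27.3% in SCC25. BAX, whose canonical transcript has 795 bases against 2587 bases over all exons, then had the second level with DMSO in both lines. MCL1, whose exons in GENCODE reach beyond its span in the deposited tables, has 6222 bases over all exons and 3950 in its canonical transcript. By either length, MCL1 had the highest level of the 10 with DMSO and PMAIP1 with squamocin, in both lines.

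**Figure D3:**
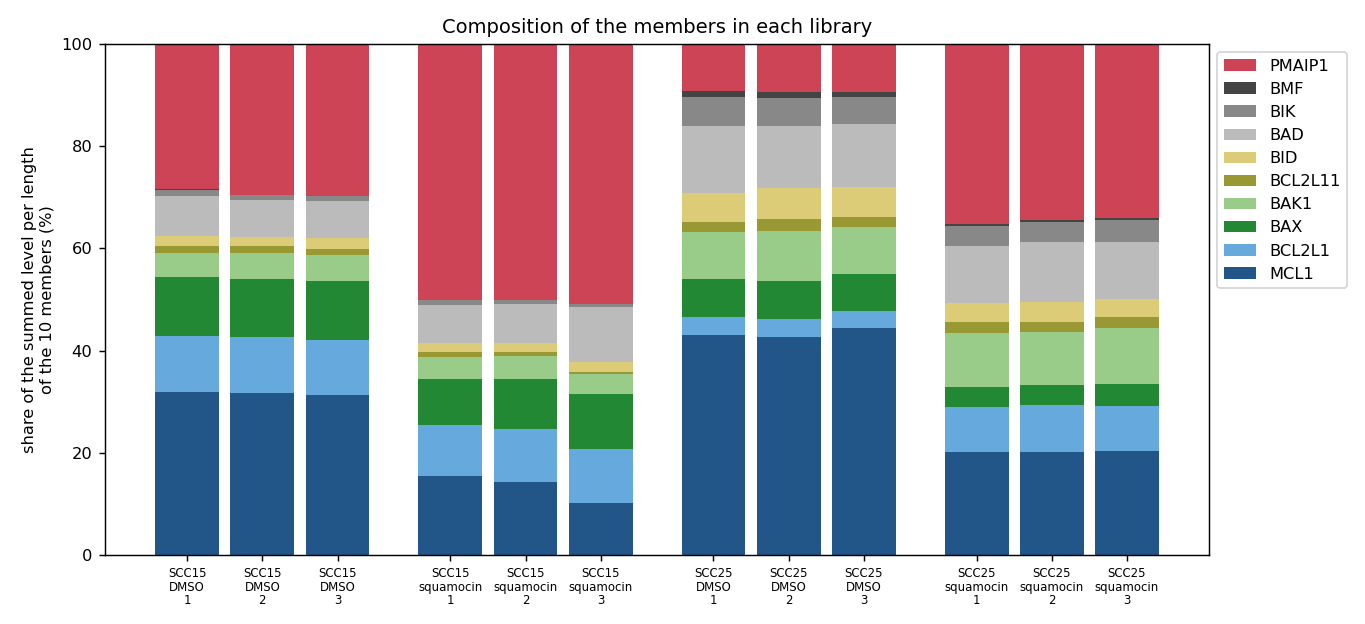
Share of each member in the summed level per length of the 10 members (%), in each of the 12 libraries, with levels in RPKM. Blue segments are the pro-survival genes, green the effectors, yellow and olive the BH3-only activators, and grey and red the BH3-only sensitizers. The PMAIP1 segment is larger and the MCL1 segment smaller in every squamocin library than in every DMSO library of the same line.

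Other genes of the pathway were read from lists written from general knowledge. Of the 13 other BCL2 family genes, 10 were tested in each line, of which 6 rose and 1 fell in SCC15 and 5 rose and 3 fell in SCC25. The shares over all genes tested were 30.9% higher and 30.0% lower in SCC15, and 38.3% and 38.5% in SCC25. BBC3, which encodes the BH3-only protein PUMA, rose more than any of the 10 members, from a mean of 300 to 3239 normalized counts in SCC15 (log2 3.42 ± 0.12, limma adjusted p = 5.49e-06) and from 803 to 5403 in SCC25 (2.75 ± 0.046, limma adjusted p = 1.42e-13). BCL2L2 (BCL-W), BCL2L12, BCL2L13 and BNIP3 also rose in both lines, by log2 0.67, 0.86, 0.43 and 1.74 in SCC15 and 0.57, 0.16, 0.24 and 0.14 in SCC25. Several of these calls depended on the scaling. When library totals were set equal, BCL2L2, BCL2L12 and BCL2L13 stood at 0.17, 0.36 and -0.064 in SCC15 (limma adjusted p = 0.201, 0.0570 and 0.609), and BCL2L12, BCL2L13 and BNIP3 at -0.048, 0.036 and -0.066 in SCC25 (limma adjusted p = 0.508, 0.527 and 0.172). BCL2L2 lies at one locus with a read-through gene, and its share of reads is uncertain. The BCL2L12 call in SCC25 was lost without squamocin replicate 1 or 2 or DMSO replicate 1 or 2 (limma adjusted p = 0.132, 0.0922, 0.0678 and 0.209). BNIP3L, a mitophagy receptor, rose in SCC15 (0.69, and 0.20 with a limma adjusted p of 0.0532 at equal totals) and was called lower in SCC25 (-0.15), a call lost without squamocin replicate 1 or 3 or DMSO replicate 2 or 3 (limma adjusted p = 0.114, 0.0671, 0.157 and 0.105).

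BCL2 itself was low in both lines. It fell in SCC15 from a mean of 27.3 to 7.09 normalized counts (log2 -1.79 ± 0.32, limma adjusted p = 0.00213) and stood at 86.6 and 68.0 in SCC25 (-0.34 ± 0.16, limma adjusted p = 0.0695), where it was called without squamocin replicate 1 (-0.44, limma adjusted p = 0.0338). BOK, a BAX-like effector, and BCL2L14 fell in SCC25 (log2 -1.07 and -1.34), and BOK was at 0.041 ± 0.18 in SCC15 (limma adjusted p = 0.857). BCL2A1 was at -0.23 in SCC25 and BCL2L10 and HRK were at 0.27 and -0.0062 in SCC15, none of them called. BCL2A1, BCL2L14 and BCL2L15 in SCC15 and BCL2L10, HRK and BCL2L15 in SCC25 were below the minimum. Equal library totals left this list with 2 genes that rose in each line, BBC3 and BNIP3 in SCC15 and BBC3 and BCL2L2 in SCC25. With those totals 2 fell in SCC15 and 5 in SCC25. Among all genes tested at equal totals, 14.6% rose and 51.0% fell in SCC15, and 30.2% rose and 47.6% fell in SCC25.

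Of the 12 genes that act at and after permeabilization, 4 rose and 5 fell in SCC15, and of 11 found in SCC25, 5 rose and 4 fell. Over all genes tested, 30.9% rose and 30.0% fell in SCC15, and 38.3% and 38.5% in SCC25, so calls in both directions were also the background. VDAC1, a channel of the outer membrane, rose by log2 0.74 in SCC15 and 0.49 in SCC25, and CYCS, which encodes cytochrome c, by 0.76 and 0.99. The SCC15 call of CYCS was lost at equal library totals (0.26, limma adjusted p = 0.146). CASP6, an executioner caspase, fell in both lines (log2 -1.17 in SCC15 and -0.82 in SCC25), as did HTRA2, a mitochondrial protease (-0.75 and -1.48). The HTRA2 call in SCC15 was kept without squamocin replicate 3 alone, and was lost without squamocin replicate 1 or 2 or DMSO replicate 1, 2 or 3 (limma adjusted p = 0.0594, 0.0774, 0.0977, 0.0804 and 0.0814). APAF1, the scaffold of the apoptosome, was called in opposite directions, lower in SCC15 (log2 -0.69) and higher in SCC25 (0.46). The median of the list was -0.020 in SCC15 and 0.089 in SCC25, and with equal library totals 2 rose and 7 fell, and 5 rose and 5 fell. The shares of all genes at equal totals are those given for the other BCL2 family genes.

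Of the 13 genes that turn over MCL1 protein or anchor BAD, BCL2L11 and BMF in the cytoplasm, 7 rose and 2 fell in SCC15 and 11 rose and 2 fell in SCC25. Beside them, 30.9% of all genes tested rose and 30.0% fell in SCC15, and 38.3% and 38.5% in SCC25. The ubiquitin ligase genes FBXW7 and MARCHF5 rose in both lines, FBXW7 by log2 0.62 (SCC15) and 0.95 (SCC25), MARCHF5 by 0.78 and 1.19. HUWE1, another ubiquitin ligase gene of MCL1, fell in SCC25 from a mean of 12151 to 5829 normalized counts (log2 -1.06 ± 0.042, limma adjusted p = 2.27e-10) and was at -0.71 ± 0.32 in SCC15 (limma adjusted p = 0.0907). The 14-3-3 genes YWHAE, YWHAH, YWHAQ, YWHAZ and SFN also rose in both, by 0.50, 0.76, 0.64, 0.68 and 0.82 in SCC15 and 0.45, 0.88, 0.47, 1.12 and 1.55 in SCC25. In SCC15 none of the 5 was called once library totals were set equal (-0.0027, 0.26, 0.14, 0.18 and 0.32, limma adjusted p = 0.977, 0.0506, 0.145, 0.0733 and 0.125), nor was FBXW7 (0.13, limma adjusted p = 0.483). DYNLL2, which encodes the dynein light chain that binds BMF, fell in both (log2 -0.60 and -0.34). USP9X, the deubiquitinase of MCL1, fell in SCC15 (log2 -0.68) and was called higher in SCC25 (0.12). That SCC25 call was lost without DMSO replicate 1 or 3 (limma adjusted p = 0.0655 and 0.0585), and the SFN call in SCC15 without DMSO replicate 2 (limma adjusted p = 0.0507). Without squamocin replicate 3 of SCC15, 4 genes of the list were lower, HUWE1 (-0.29) and DYNLL1 (-0.75) being the added calls, and YWHAG was higher (0.21). With all libraries, DYNLL1 was at -0.47 in SCC15 (limma adjusted p = 0.0948) and rose in SCC25 (0.59 ± 0.059, limma adjusted p = 1.21e-06). Under equal library totals, 1 rose (MARCHF5, 0.29, limma adjusted p = 0.0103) and 6 fell in SCC15 and 10 rose and 3 fell in SCC25, where USP9X turned to -0.093 (limma adjusted p = 0.0419). At equal totals 14.6% of all genes rose and 51.0% fell in SCC15, and 30.2% and 47.6% in SCC25.

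Of the 10 transcription factors known to act on BCL2 family genes, 9 were tested in SCC15 and 10 in SCC25. In SCC15 6 rose and 1 fell, 0 without DMSO replicate 1 or 3, and in SCC25 6 rose and 4 fell. By comparison, 30.9% of all genes tested rose and 30.0% fell in SCC15, and 38.3% and 38.5% in SCC25. At equal totals these shares were 14.6% and 51.0% in SCC15, and 30.2% and 47.6% in SCC25. DDIT3 (CHOP) rose by log2 4.30 in SCC15 and 2.63 in SCC25, ATF4 by 2.25 and 0.91, ATF3 by 1.56 and 2.54, JUN by 1.95 and 1.38, and FOXO3 by 0.60 and 0.74. The SCC15 call of FOXO3 was lost without DMSO replicate 2 (limma adjusted p = 0.0527). MYC rose in SCC15 (log2 0.75, from 622 to 1052 normalized counts) and fell in SCC25 (-1.87, from 6439 to 1762). With equal library totals, 4 of the list rose and 3 fell in SCC15, where MYC (0.26, limma adjusted p = 0.119) and FOXO3 (0.10, limma adjusted p = 0.686) were no longer called, and 6 rose and 4 fell in SCC25.

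The genes whose pattern was most like that of PMAIP1 over the 12 libraries, by the root mean square difference of log2 values centred on the DMSO mean of each line, were SMIM29 (0.084), MARCKSL1 (0.090) and IL32 (0.096), where the median over 12035 protein-coding genes was 1.48. For BMF, the member with the largest mean fall, they were MFAP1 (0.16), TOMM40L (0.17) and TEFM (0.18), with a median of 0.83.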

How the data were processed

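RNA-seq of SCC15 and SCC25 cells, with 3 libraries per treatment and line, was re-analysed. Per the labels, reads were aligned to GRCh38 (hg38) with HISAT2 2.0.5 and counted with featureCounts 1.5.0-p3. As the deposited signal, the authors gave each gene's reads divided by a size factor, which they set for every library within its cell line. The SCC25 columns are named FPKM but hold the same kind of value. Multiplied back, all libraries gave whole reads within 0.05, and these set the depth at 16665563 to 22748845 per library. The authors' means and their own fold changes and p-values were not used.

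Log2 of the signal plus 1 was tested with limma 3.58.1 (eBayes with a trend) in R 4.3.3, two-sided, for genes with a mean of at least 10, with Benjamini-Hochberg adjustment over all of them and a threshold of 0.05. Levels per length used exons of GENCODE release 44, and promoter windows came from RefSeq (GRCh38.p14). A protein sequence table was not used here. Alternatives were edgeR 4.0.16 and DESeq2 1.42.0 on these reads, TMM factors, library totals made equal, pseudocounts of 0.1 and 10, a minimum of 10 in every library or none beyond 0, a block for the replicate number, and leaving out each library in turn. Leaving 2 libraries in a group assumes that they vary like the others. Canonical transcript lengths, and each library left out of the shares, were added after seeing the data. Scripts were tested on simulated data.

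The members and lists were chosen with earlier results of these data known. The genes named are the 10 members, the other BCL2 family genes, the genes of each list called in the same direction in both lines, and the 3 genes most like the member with the largest mean rise and the largest mean fall. BNIP3L, APAF1, USP9X, MYC, HUWE1, DYNLL1 and YWHAG were named after their values were seen. A few genes of the lists are left out of the text. Symbols had become dates for 24 genes (SCC15) and 21 (SCC25), and MARCHF5 was found by its identifier.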

Additional observations from a re-analysis of the deposited data

Results flagged for a closer look

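The response to squamocin differed between the lines for 6 of the 10 members by the limma contrast of the lines, where 52.2% of all genes tested in both differed. On the log2 scale, as the SCC15 response minus the SCC25 response, these were BAX at 1.03 (0.67 against -0.36), BID at 0.87 (0.74 against -0.13) and BAD at 0.72 (1.06 against 0.35), which were higher in SCC15. BCL2L1 at -1.08 (0.79 against 1.87), PMAIP1 at -0.72 (1.67 against 2.39) and BCL2L11 at -0.38 (0.059 against 0.44) were higher in SCC25. With equal library totals they were 0.74, 0.58 and 0.43, and -1.37, -1.01 and -0.67, of which that of BAD was not called. Squamocin replicate 3 of SCC15, the library that stood apart, had the highest BAX, BID and BAD of its group, and without it their differences were 0.80, 0.63 and 0.39. Its part in these differences beyond those values was not tested.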

How the results depend on the processing

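Equal library totals changed most. They gave 2336 genes higher and 8179 lower in SCC15 against 4921 and 4773, 3 members higher in SCC15, and 2396 genes with the higher response in SCC15 against 3779, and they turned BCL2L11 (-0.44) and BIK (-0.012) in SCC15, BIK in SCC25 (-0.15) and the difference of MCL1 (-0.079). A single member was called lower in SCC15 with at least 10 in every library, where BMF is not tested. Leaving out a library gave 1 to 2, moved BCL2L11 in SCC15 between -0.045 and 0.16, and moved the difference of BMF between -0.40 and 0.0057 and that of BAK1 between -0.14 and 0.030, with 0.00035 without squamocin replicate 2 of SCC15. A pseudocount of 10 turned that of BMF to 0.10. With the replicate number as a block, 1 member was lower in SCC15, since BMF had a limma adjusted p of 0.0610, and BID in SCC25 (0.0554) and the difference of BCL2L11 (0.0507) were not called. Deviations from the group means correlated at -0.051 to 0.0078 between same-numbered squamocin and DMSO libraries. Between differently numbered ones they correlated at -0.040 to 0.049. These values showed no pairing by number but cannot tell whether libraries shared a culture, which the labels do not state. DESeq2 did not call BID in SCC25 (adjusted p = 0.0649) or the difference of BCL2L11 (0.0505) and called that of MCL1 (0.00748).

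With canonical transcript lengths, PMAIP1 held 37.8% and 20.5% of the members' summed level in SCC15 and 27.3% and 6.60% in SCC25, with squamocin and DMSO. MCL1 held 30.3% with DMSO in SCC15, and 21.9% and 42.0% in SCC25. The pro-survival genes held 41.2% with DMSO in SCC15, and 31.8% and 45.5% in SCC25. The highest member stood 400.4 times above the lowest with DMSO in SCC15 and 53.0 times in SCC25. BMF and BIK in SCC15 rest on 7 to 63 reads a library, which limits both.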
